A study of Mus musculus and Meriones unguiculatus with 4 samples.

Results

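Axon guidance ligands and receptors were followed in the enamel knot region of gerbil and mouse tooth germs. The list held 46 genes of the semaphorin, ephrin, Slit and netrin systems, and 41 of them had a symbol that occurred once in each species' table, out of 10162 genes measured in both species. Epha3, Ntn4, Plxna2, Robo2 and Sema4b, the other 5, were matched in the mouse table only. In mouse PEK and SEK they stood at 0.563 and 1.56 (Epha3), 1.99 and 1.32 (Ntn4), 1.78 and 1.14 (Plxna2), 1.53 and 1.97 (Robo2) and 12.2 and 6.07 FPKM (Sema4b). The study took wild-type gerbil embryos (Meriones unguiculatus) at embryonic day 15 and wild-type mouse embryos at embryonic day 13, with 2 samples per species, and set the region of one species against that of the other. The samples were labelled epithelial cells and were cut by laser microdissection from fixed, frozen-sectioned germs of the lower jaw. The number of animals per sample and the marker used to find the knot were not given in the sources used here, so any spread given between the 2 may be technical.

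The libraries are named by the endings of their columns, E21 and E23 for gerbil and PEK and SEK for mouse. What the endings stand for is not in the labels. Read as embryonic days, E21 and E23 would differ from the embryonic day 15 that the gerbil samples are given. Should they mark different stages or regions, the SDs and SEs given here hold that difference too and the 2 libraries would not be replicates. A level is the deposited value (TPM in gerbil, FPKM in mouse) rescaled to 1000000 over the genes matched by symbol, so it is per length. Between genes of a library it can be compared only roughly, because a length trend described further on remains in the levels. Levels across species stand in tables that the authors normalized separately. Depth is unknown for mouse and was not analysed here for gerbil. Differences are gerbil minus mouse on the log2(level + 1) scale after removal of a transcript length trend from each library, and they understate the change of low genes. Their ratio can therefore differ from that of the levels printed beside them. A call of higher in gerbil or in mouse required the lowest library of that species to exceed the highest of the other by at least 2-fold on that scale. Separate tables allow no test between them here, and 2 libraries against 2 give an exact permutation test no two-sided p under 0.333.

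The enamel knot is an epithelial signalling centre, in which cells stop dividing and secrete growth factors while the epithelium around them folds. Guidance molecules steer growing axons and also set boundaries, adhesion and migration in epithelia and vessels. Semaphorins signal through plexins, with neuropilins as co-receptors of the secreted class 3. Ephrins are tethered to the cell surface and bind Eph receptor tyrosine kinases on neighbouring cells, with ephrin-A ligands preferring EphA and ephrin-B ligands EphB. Secreted Slits act through Robo receptors, and netrins through Dcc, neogenin and the Unc5 family. In the mouse tooth germ, semaphorin signalling is known to time and pattern the entry of dental nerves.

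Semaphorin genes were called higher in gerbil, a plexin gene higher in mouse and ephrin and Eph genes in both directions, and the share called was below that of all measured genes. Of the 41 members, 5 were called higher in gerbil (12.2%, against 13.4% of all measured genes) and 3 higher in mouse (7.32%, against 14.7% of all measured genes). The 5 were the semaphorin genes Sema3d, Sema5a and Sema6d, the ephrin gene Efna5 and the receptor gene Epha4. The 3 were the ephrin gene Efna2, the receptor gene Ephb4 and the plexin gene Plxnb2. The other 33 members met neither criterion. In 16 members both gerbil libraries lay above both mouse libraries by any margin (39.0%, against 37.0% of all genes), and in 10 both mouse libraries lay above (24.4%, against 37.3%). At a 4-fold gap, 0 members were higher in gerbil (against 3.14% of all genes) and Efna2 alone was higher in mouse (against 5.46%). With gerbil E21, gerbil E23, mouse PEK or mouse SEK left out in turn, 5, 9, 10 and 7 members were called higher in gerbil, against 17.4%, 16.4%, 19.2% and 17.6% of all genes. In the same order, 4, 4, 3 and 5 were called higher in mouse, against 18.7%, 18.3%, 20.5% and 20.0%. The call rule is easier to meet when a library is left out. The members' median difference was 0.16, beside -0.02 over all measured genes. All 41 passed the filter on low values and none was listed at 0 in any library.

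**Figure D1:**
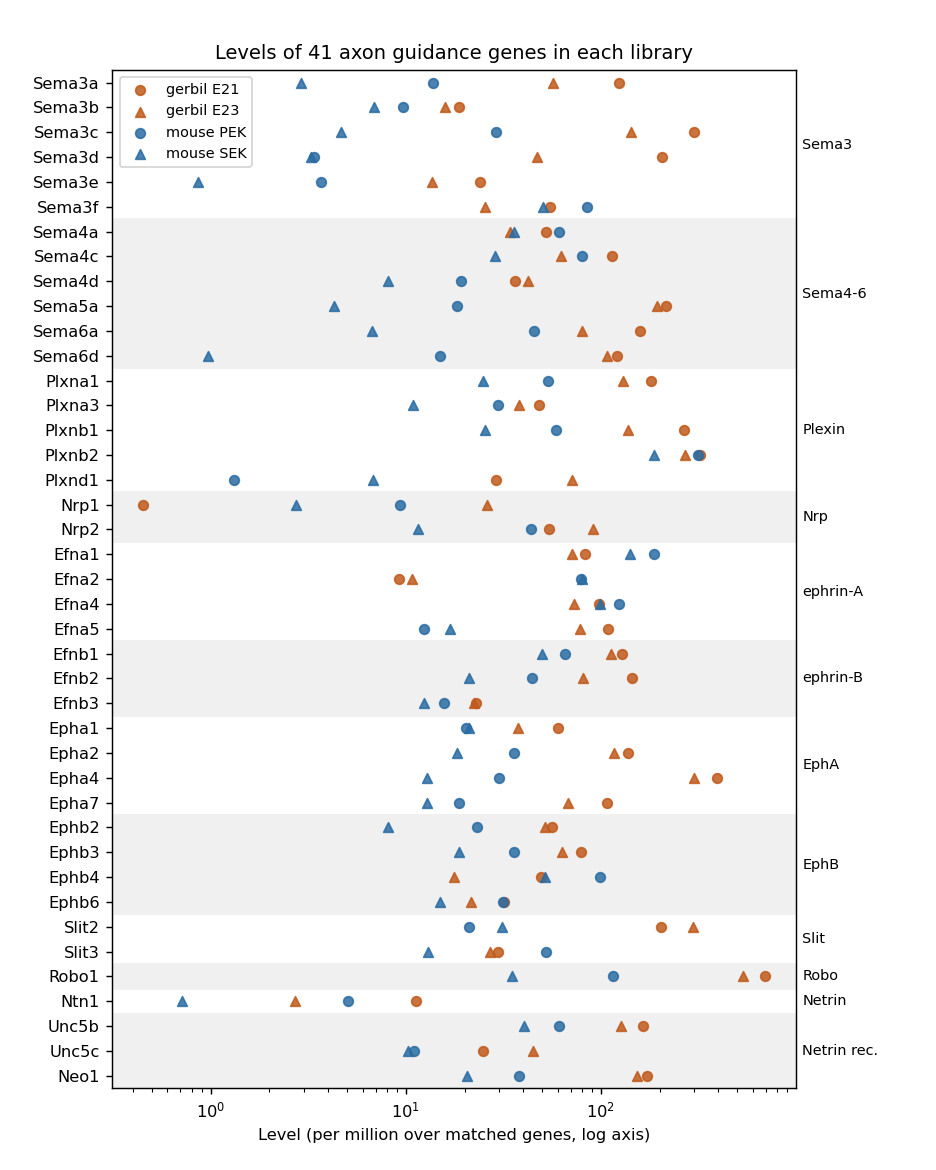
Level of each of the 41 members (rows, grouped by family) in each library, per 1000000 over matched genes on a log axis. Circles and triangles are gerbil E21 and E23 (orange) and mouse PEK and SEK (blue). Robo1 is the highest member in both gerbil libraries (689 and 533) and Plxnb2 the highest in both mouse libraries (314 and 187).

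The order of levels, taken without the length correction, differed between the species. Robo1, a Slit receptor gene, ranked 1 of the members in both gerbil libraries, followed by Epha4 at rank 2 in both. In mouse, Plxnb2 ranked 1 in both libraries, followed by the ephrin-A genes Efna1 at rank 2 and Efna4 at rank 3 in both. Among all measured genes, Robo1 lay at the 98.8 and 98.2 percentile of gerbil E21 and E23 and at the 83.6 and 60.9 percentile of mouse PEK and SEK. The members' summed level was 5126 and 3885 in gerbil, against 2018 and 1151 in mouse, without the length correction. The members have long transcripts, and the length trend described further on is in these sums. It is in the ranks and percentiles too. Robo1 and Epha4 have longer transcripts (7563 and 6328 bases) than Efna1 and Efna4 (1830 and 1599 bases). After the length correction Epha4 and Plxnb2 were called, while Robo1, Efna1 and Efna4 were not.

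**Figure D2:**
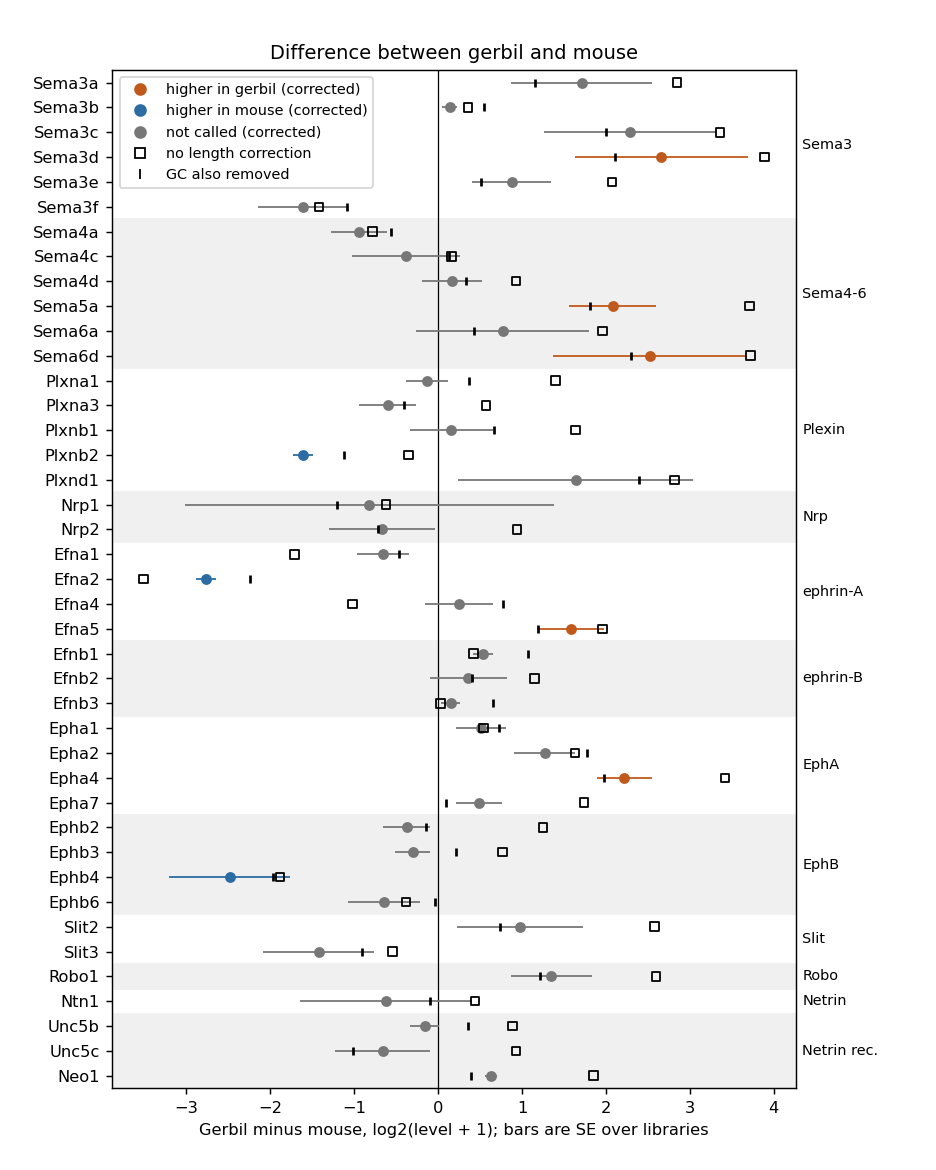
Gerbil minus mouse difference of each member on the log2(level + 1) scale. Filled points carry the length correction and are coloured by call, with bars of 1 SE over the libraries, open squares are without the correction, and ticks have a GC trend removed as well. Most open squares lie right of the filled points, while those of Efna1, Efna2, Efna4, Efnb1 and Efnb3 lie left of them.

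Among the Eph receptors, Epha4 stood out in gerbil. Epha4 encodes an EphA receptor that binds ligands of both ephrin classes. Its level was 394 and 298 in gerbil E21 and E23, against 30.1 and 12.8 in mouse PEK and SEK. Both gerbil libraries lay above both mouse libraries with no overlap. The mean was 346 ± 67.9 in gerbil libraries and 21.4 ± 12.2 in mouse libraries (SD, n = 2 per species), a corrected log2 difference of 2.22 ± 0.33 (SE), or 4.67-fold. The gene (ENSMUSG00000026235) spans positions 77366983 to 77515088 of chromosome 1 on the minus strand in the mouse table, whose builds the submitters' processing notes give as GRCm38 and mm10. Within a library, Epha4 made up 56.4% and 57.5% of the summed level of the 4 measured EphA genes in gerbil, against 28.7% and 19.8% in mouse. That share needs no scaling between the tables, but it is of levels without the length correction, as are all family shares given here.

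The other EphA genes leaned the same way without being called. Epha2, an epithelial EphA receptor gene, was at 137 and 116 in gerbil, against 35.8 and 18.2 in mouse. Its libraries did not overlap, with a log2 difference of 1.27 ± 0.36, and it was called higher in gerbil with no length correction (1.63) and with GC also removed (1.78), as well as without gerbil E23 (1.44) or mouse PEK (1.66). Epha7 was at 107 and 67.4 in gerbil, against 18.7 and 12.9 in mouse (log2 0.49 ± 0.27), and was called higher in gerbil with no length correction only (1.74). Epha1, the founding EphA gene, was at 60.5 and 37.6 in gerbil, against 20.3 and 21 in mouse (0.51 ± 0.30). All 4 EphA differences were positive, with and without the length correction.

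Ephb4 went the other way. Ephb4 encodes the receptor of ephrin-B2 and is best known from veins. It stood at 49.2 in gerbil E21 and 17.6 in E23, against 98.4 and 51.6 in mouse PEK and SEK. The levels themselves nearly touch between gerbil E21 and mouse SEK, and the call rests on the length correction. The difference was -2.48 ± 0.72 with it, 5.58-fold lower in gerbil, and -1.88 and not called without it. It was -3.15 without gerbil E21 and -1.80 without gerbil E23. Ephb4 made up 22.8% and 11.4% of the summed level of the 4 EphB genes in gerbil, against 52.1% and 55.2% in mouse. Ephb3 was at 36.4% and 41.0% in gerbil against 19.0% and 20.1% in mouse, and Ephb2 at 26.0% and 33.6% against 12.2% and 8.68%. Shares carry the length trend, and the shares of the other genes rise where that of Ephb4 falls, so these values do not show an opposite change of Ephb2 or Ephb3.

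The remaining EphB genes met neither criterion. Ephb2 was at 56.1 and 51.6 in gerbil, against 23.1 and 8.12 in mouse, a corrected difference of -0.37 ± 0.28 that was 1.25 without the length correction. Ephb3 was at 78.6 and 63.1 in gerbil, against 35.9 and 18.8 in mouse (-0.30 ± 0.21, and 0.77 without the correction). Ephb6, whose product lacks kinase activity, was at 31.9 and 21.5 in gerbil, against 31.5 and 15.0 in mouse (-0.64 ± 0.43, and -0.38). The family's median of -0.51 thus turned to 0.19 when the correction was left out.

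**Figure D3:**
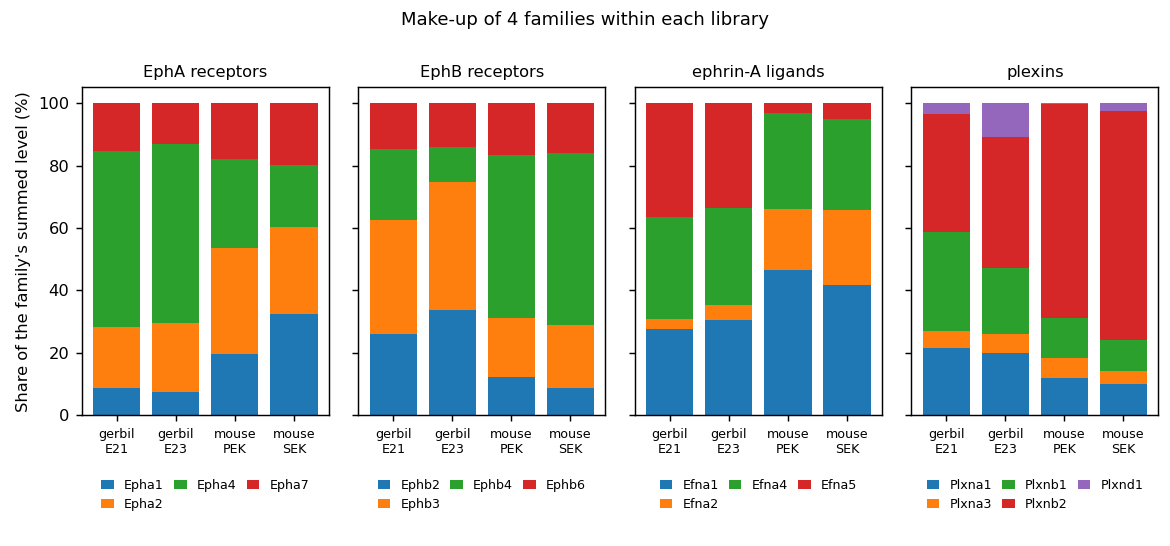
Share of each gene (percent) in the summed level of its family, for the measured EphA, EphB, ephrin-A and plexin genes. Each bar is 1 library, gerbil E21 and E23 left of mouse PEK and SEK. Epha4 takes over 56% of the EphA sum in both gerbil libraries and under 29% in both mouse libraries, and Ephb4 takes over 52% of the EphB sum in both mouse libraries.

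Among the ephrin-A ligands, Efna2 was called higher in mouse and Efna5 higher in gerbil. Efna2 stood at 9.27 in gerbil E21 and 10.8 in E23, against 79.4 and 80.1 in mouse PEK and SEK. The libraries within a species were close to each other and the species lay far apart. The difference was -2.76 ± 0.12, 6.79-fold lower in gerbil, with the nearest libraries 2.62 apart on the log2 scale. Efna5 ran opposite, at 109 and 77.8 in gerbil, against 12.4 and 16.8 in mouse (1.58 ± 0.40, or 2.98-fold). Its nearest libraries lay 1.02 apart, just past the limit of 1 that a 2-fold gap sets. The Efna5 call ended with GC also removed (1.19), without gerbil E21 (1.36) and with a pseudocount of 0.1 (1.56).

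Shares within a library, which carry the length trend, gave the same order. Efna5 took 36.5% and 33.5% of the summed ephrin-A level in gerbil, against 3.08% and 4.99% in mouse. Efna2 took 3.12% and 4.65% in gerbil, against 19.8% and 23.9% in mouse. The Efna5 to Efna2 ratio, a pair chosen after the values were seen, was 11.7 and 7.21 in gerbil, against 0.156 and 0.209 in mouse. Efna5 has the longer transcript (4032 bases, against 2131 for Efna2), and the log2 contrast between the pair across species was 5.47 without the length correction and 4.34 with it.

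Efna1 and Efna4, the most abundant ephrin-A genes of the mouse libraries, were not called. Efna1 was at 82.4 and 70.8 in gerbil, against 187 and 140.4 in mouse (-0.66 ± 0.31), and was called higher in mouse with no length correction (-1.71). Efna4 was at 97.4 and 72.7 in gerbil, against 123 and 98.4 in mouse (0.25 ± 0.41, and -1.02 without the correction). The ephrin-B genes encode transmembrane ligands that also signal backwards into the cell that carries them. All 3 were slightly positive, Efnb1 at 128 and 113 against 65.8 and 49.8 (0.54 ± 0.12), Efnb2 at 144 and 81.3 against 44.4 and 21.1 (0.36 ± 0.46) and Efnb3 at 22.8 and 22.4 against 15.6 and 12.4 (0.15 ± 0.11), each in gerbil against mouse. None of them was called with or without the length correction.

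Class 3 semaphorins, which are secreted, were led by different genes in each species. Sema3d stood at 205 in gerbil E21 and 47.0 in E23, against 3.38 and 3.28 in mouse PEK and SEK. The gerbil libraries differed from each other over 4-fold and both lay above the mouse libraries. The difference was 2.66 ± 1.03, or 6.32-fold, and the call ended with GC also removed (2.11). Without gerbil E21 the difference was 1.68 and without gerbil E23 it was 3.64, and Sema3d is not measured at a minimum level of 10 in each species. Sema3c was at 299.6 and 143 in gerbil, against 29.1 and 4.65 in mouse. No mouse library reached the gerbil ones, but the gap on the corrected scale was 0.87 and Sema3c was not called (2.29 ± 1.03). It was called without the length correction (3.36), with no filter or a stricter one on low values (2.52), and without gerbil E23 (2.82) or mouse PEK (3.14).

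Sema3a, whose product repels sensory axons, was at 124 and 57.1 in gerbil, against 13.8 and 2.89 in mouse (1.71 ± 0.84, not called, and called at 2.85 without the length correction, 2.22 without gerbil E23 and 2.34 without mouse PEK). Sema3e, whose product binds plexin D1 directly, was at 24.1 and 13.6 in gerbil, against 3.67 and 0.86 in mouse (0.88 ± 0.47, and called at 2.07). Sema3f was the class 3 gene with a negative difference, at 55.1 and 25.4 in gerbil, against 84.6 and 50.6 in mouse. Its difference was -1.61 ± 0.53 and it was called higher in mouse when gerbil E21 (-2.12) or mouse SEK (-1.77) was left out. Sema3b was level between the species on the corrected scale, at 18.7 and 15.9 in gerbil, against 9.65 and 6.85 in mouse (0.14 ± 0.09). Sema3f made up 7.59% and 8.43% of the class 3 sum in gerbil, against 58.6% and 73.2% in mouse, while Sema3c made up 41.3% and 47.3% in gerbil, against 20.2% and 6.73% in mouse.

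Of the membrane-bound semaphorins, Sema5a and Sema6d were called higher in gerbil. Sema5a stood at 215 in gerbil E21 and 193 in E23, against 18.4 and 4.27 in mouse PEK and SEK (2.08 ± 0.52, or 4.24-fold). The gerbil libraries were nearly equal and neither mouse library came near them. Sema6d was at 121 and 107 in gerbil, against 15.0 and 0.966 in mouse (2.52 ± 1.15, or 5.74-fold). The mouse libraries of Sema6d differed over 4-fold, and the difference between the species was 1.39 without mouse SEK and 3.66 without mouse PEK. Sema6d is not measured at a minimum level of 10 in each species. Both calls were kept with GC also removed, at 1.81 for Sema5a and 2.30 for Sema6d.

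Class 4 members were not called. Sema4a was at 52.5 and 34.0 in gerbil, against 60.9 and 35.8 in mouse (-0.94 ± 0.33). Sema4c was at 114 and 62.4 in gerbil, against 79.9 and 28.8 in mouse (-0.38 ± 0.64, and 0.16 without the length correction), and Sema4d, which encodes the ligand of plexin B1, was at 36.1 and 42.4 in gerbil, against 19.1 and 8.14 in mouse (0.17 ± 0.36). Sema6a was at 159 and 80.0 in gerbil, against 45.4 and 6.69 in mouse (0.77 ± 1.03). It was called higher in gerbil without mouse PEK (1.68) and was at -0.15 without mouse SEK. Of the 12 measured semaphorins, 3 were higher in gerbil (against 13.4% of all genes), 0 in mouse (against 14.7%) and 9 not called, with a median of 0.82, which was 2.01 without the length correction and 0.53 with GC also removed.

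On the receptor side, Plxnb2 was the called plexin, and its call rests on the length correction. Plxnb2 encodes a receptor of class 4 semaphorins and stood at 321 in gerbil E21 and 269.8 in E23, against 314 and 187 in mouse PEK and SEK. These levels overlap between the species. On the corrected scale the difference was -1.61 ± 0.12, 3.06-fold lower in gerbil, while it was -0.35 without the correction. With neither centring nor correction it was 0.28, a scaling that moved the median of all measured genes to 0.62. Plxnb2 made up 37.9% and 41.9% of the plexin sum in gerbil, against 68.7% and 73.3% in mouse.

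The other plexins met neither criterion. Plxna1 was at 181 and 129 in gerbil, against 53.3 and 25.0 in mouse (-0.13 ± 0.25, and 1.40 without the length correction). Plxnb1 was at 267 and 137 in gerbil, against 59.1 and 25.5 in mouse (0.16 ± 0.49, and 1.64), and Plxna3 was at 48.2 and 38.2 in gerbil, against 29.5 and 10.9 in mouse (-0.60 ± 0.34, and 0.57). Plxnd1, an endothelial plexin gene, was at 29.0 and 70.8 in gerbil, against 1.32 and 6.75 in mouse (1.64 ± 1.40). It was called higher in gerbil with no length correction (2.82), without gerbil E21 (2.34) and without mouse SEK (2.89), and was at 0.39 without mouse PEK.

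The neuropilin genes showed no call, and Nrp1 differed most between the libraries of a species. Nrp1 stood at 0.452 in gerbil E21 and 26.1 in E23, against 9.33 and 2.75 in mouse PEK and SEK. One gerbil library lay below both mouse libraries and the other above both, and the difference of -0.82 ± 2.20 has no usable direction. It was -2.94, and called higher in mouse, without gerbil E23, and 1.23 without gerbil E21. Nrp2 was at 53.9 and 90.7 in gerbil, against 43.8 and 11.6 in mouse (-0.67 ± 0.63, and 0.94 without the length correction). Nrp2 was thus the more abundant neuropilin gene in all 4 libraries, 119 times Nrp1 in gerbil E21 and 3.48 to 4.69 times in the other 3.

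Robo1 and Slit2 were abundant in gerbil and Slit3 was not, and none of the 3 was called. Robo1 stood at 689 in gerbil E21 and 533 in E23, against 115 and 34.9 in mouse PEK and SEK. The species did not overlap, and the corrected difference was 1.35 ± 0.48 with a gap of 0.78. Robo1 was called higher in gerbil with no length correction (2.60), without gerbil E23 (1.47), without mouse PEK (1.84) and with a minimum level of 10 in each species (1.62). Slit2, which encodes a Robo ligand, was at 203 and 296 in gerbil, against 21.1 and 31.1 in mouse (0.98 ± 0.75, and called at 2.58 without the length correction and 1.69 without mouse SEK). Slit3 was at 29.7 and 26.9 in gerbil, against 52.4 and 13.0 in mouse (-1.42 ± 0.66, and called higher in mouse at -2.04 without mouse SEK).

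Ntn1 was the only netrin member measured and was low, and the netrin receptor genes were not called. Ntn1, the founding netrin gene, was at 11.3 and 2.72 in gerbil, against 5.03 and 0.712 in mouse (-0.62 ± 1.03, and 0.44 without the length correction), with overlapping libraries. Unc5b, an Unc5 receptor gene also known from vessels, was at 165 and 126 in gerbil, against 61.1 and 40.2 in mouse (-0.16 ± 0.17, and 0.89). Unc5c was at 24.8 and 44.6 in gerbil, against 11.0 and 10.2 in mouse (-0.66 ± 0.57, and 0.93). Neo1, which encodes neogenin, was at 172 and 153 in gerbil, against 38.2 and 20.5 in mouse. Its difference was 0.63 ± 0.07, and 1.85 and called higher in gerbil with no length correction.

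Transcript length and base composition moved with these differences. The measured members have a median transcript length of 5869 bases, beside 3382 over all measured genes, and 22 of the 41 fall in the longest of 5 equal groups of genes. Without the length correction the median of all genes was -1.52 in the shortest group and 1.26 in the longest, and the members of the longest group had a median of 1.80. On that scale 14 members were called higher in gerbil (34.1%, against 18.4% of all genes) and 2 higher in mouse (4.88%, against 19.4%). With no centring either, the counts were 19 (46.3%, against 29.7%) and 1 (2.44%, against 11.9%). After the length correction the rank correlation of length with the difference was -0.02 across all genes and 0.31 across the 41 members (0.68 before it), as a description only. Whether the remaining member differences depend on other features of the gene models was not tested.

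GC content still moved with the corrected differences. The 5 members called higher in gerbil have transcripts of 39.2% to 49.0% GC, and the 3 called higher in mouse 57.3% to 58.5%, with no overlap. Over all measured genes, 20.8% were called higher in gerbil and 9.99% higher in mouse in the lowest of 5 equal groups by GC, against 6.05% and 23.6% in the highest. Across the 41 members, the rank correlation of GC with the corrected difference was -0.51, beside -0.25 across all 10162 genes, as a description only. With the GC trend removed as well, 6 of the 8 calls were kept, those of Sema3d and Efna5 ended, and Epha2 was added. Then 4 members were higher in gerbil (9.76%, against 11.6% of all genes) and 3 higher in mouse (7.32%, against 14.0%). The part of base composition in each single difference was not tested.

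**Figure D4:**
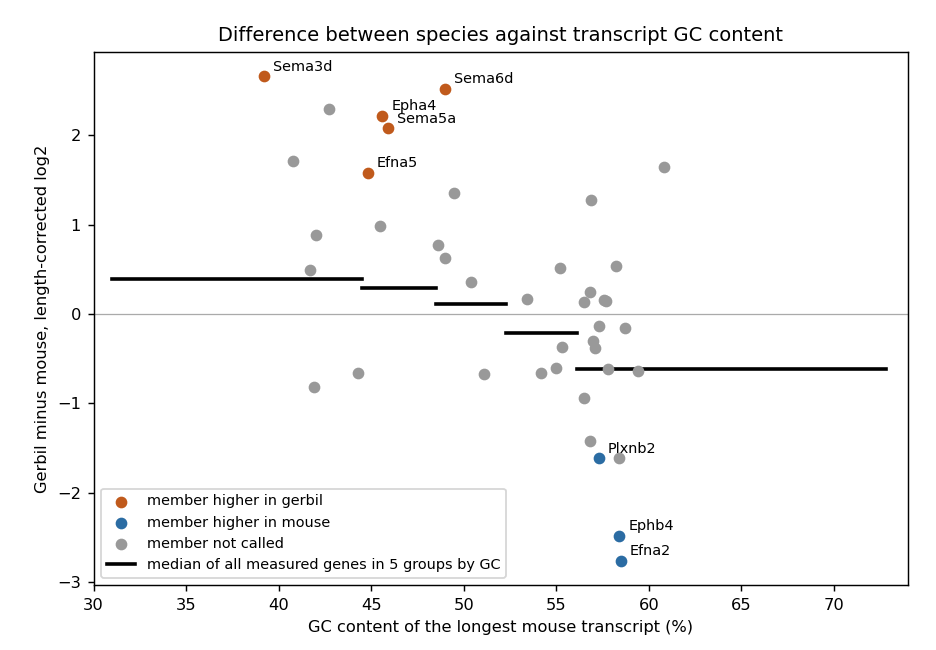
Length-corrected gerbil minus mouse log2 difference of the 41 members against the GC content of the longest mouse transcript (percent). Coloured points are called members, and black lines are the medians of all measured genes in 5 equal groups by GC. The 5 members higher in gerbil lie at or below 49.0% GC and the 3 higher in mouse at or above 57.3%.

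The stretches in front of these genes are shown for the 2 called members per direction with the widest gap between the species, Epha4 and Sema5a (higher in gerbil) and Efna2 and Ephb4 (higher in mouse), because the calls split by base composition. Each is the 250 bases before the RefSeq start of the mouse gene in GRCm38.p6, 5′ to 3′ on the gene's strand, and capitals mark the GC box GGGCGG on either strand. They lie at chr1:77515089-77515338 on the minus strand (Epha4), chr15:32244563-32244812 (Sema5a), chr10:80179232-80179481 (Efna2) and chr5:137349859-137350108 (Ephb4), the last 3 on the plus strand.
Epha4: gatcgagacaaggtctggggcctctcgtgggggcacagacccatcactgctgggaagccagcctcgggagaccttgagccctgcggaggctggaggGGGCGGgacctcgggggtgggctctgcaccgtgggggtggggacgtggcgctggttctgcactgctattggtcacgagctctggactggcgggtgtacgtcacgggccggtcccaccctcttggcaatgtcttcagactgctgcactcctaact
Sema5a: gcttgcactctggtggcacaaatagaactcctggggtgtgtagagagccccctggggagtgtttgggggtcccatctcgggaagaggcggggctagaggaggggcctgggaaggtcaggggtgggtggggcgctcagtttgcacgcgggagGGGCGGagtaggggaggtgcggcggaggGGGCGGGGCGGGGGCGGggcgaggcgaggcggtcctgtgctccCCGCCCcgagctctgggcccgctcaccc
Efna2: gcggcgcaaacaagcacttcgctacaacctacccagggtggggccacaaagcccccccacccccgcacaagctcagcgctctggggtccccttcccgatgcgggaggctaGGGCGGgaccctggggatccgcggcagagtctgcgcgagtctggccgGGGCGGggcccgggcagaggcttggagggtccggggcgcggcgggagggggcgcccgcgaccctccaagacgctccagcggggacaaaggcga
Ephb4: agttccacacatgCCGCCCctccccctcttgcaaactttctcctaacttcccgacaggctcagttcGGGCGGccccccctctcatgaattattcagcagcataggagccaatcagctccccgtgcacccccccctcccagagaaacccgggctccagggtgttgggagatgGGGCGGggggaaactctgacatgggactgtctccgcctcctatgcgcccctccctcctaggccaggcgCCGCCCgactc

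The windows did not split the way the transcripts did. Their GC content was 66.0% for Epha4 and 72.0% for Sema5a, and 73.6% for Efna2 and 64.0% for Ephb4, all above the median of 52.4% over 32851 mouse windows of the same length. All 4 hold the GC box, which is in 32.7% of those windows, with 1 match for Epha4 and 5 for Sema5a, some of which overlap each other, and with 2 for Efna2 and 4 for Ephb4. CCAAT, in 33.8% of windows, is in those of Epha4 and Ephb4. TATAAA (12.4%), CACGTG (6.02%) and CTTTGAT (3.21%) are in none of the 4 on either strand. A match describes the letters only. RefSeq windows were matched by symbol for 35 of the 41 members.

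Other genes of the guidance pathways were also called in both directions. Of 20 further measured ligands and receptors, gerbil was higher in 1 (against 13.4% of all genes) and mouse in 1 (against 14.7%). The other 18 were not called, and the median was 0.48. Draxin, which encodes a repellent that binds Dcc, was at 23.5 and 9.77 in gerbil, against 1.16 and 0.121 in mouse (1.91 ± 0.61). Sema6c was at 10.8 and 11.9 in gerbil, against 37.0 and 18.5 in mouse (-2.17 ± 0.33, not called with GC also removed at -1.25).

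Of 40 measured genes listed as intracellular guidance signalling, gerbil was higher in 8 (against 13.4% of all genes) and mouse in 6 (against 14.7%). The other 26 were not called, and the median was 0.29. The gene with the widest gap was Farp2, which encodes an exchange factor downstream of plexins, at 58.7 and 67.1 in gerbil, against 2.17 and 1.58 in mouse (2.96 ± 0.19). Srgap3, which encodes a Slit-Robo GTPase-activating protein, was at 32.0 and 31.2 in gerbil, against 0.658 and 0.329 in mouse (2.31 ± 0.24). Dpysl2, encoding the semaphorin mediator CRMP2, was at 289.6 and 277 in gerbil, against 38.7 and 28.6 in mouse (1.89 ± 0.05). Met (1.74 ± 0.23), which encodes a cell-surface receptor though it is on this list, and Arhgap35 (1.68 ± 0.18) complete the 5 widest in that direction. In the other direction, the actin regulator gene Limk2 was at 179 and 137 in gerbil, against 374 and 219.8 in mouse (-1.89 ± 0.29), followed by Ablim1 (-1.42 ± 0.08), Srgap1 (-1.53 ± 0.21), Dpysl5 (-3.25 ± 1.48) and Vav2 (-1.52 ± 0.22). The Ablim1, Srgap1, Dpysl5 and Vav2 calls ended without the length correction, where the Ablim1 difference was 0.10.

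Markers of the labelled tissue and of others were read in the same libraries, with sums over all matched markers of a list. Dental epithelium markers summed to 9721 and 8370.2 in gerbil, against 5632 and 7867 in mouse, and dental mesenchyme markers to 1953 and 3581 in gerbil, against 1269 and 1529 in mouse. The 12 mesenchyme markers had a corrected median difference of 0.08. Calls among them numbered 0 for gerbil and 2 for mouse, Barx1 (-2.73) and Msx1 (-2.67). The mesenchyme sums lack the length correction and do not show a general rise of these markers in gerbil. Neuron markers were low, with a sum of 60.2 and 26.4 in gerbil, against 52.9 and 63.5 in mouse, and Elavl3 and Prph were among those listed at 0 in both gerbil libraries. Single neuron markers went opposite ways. Syt1 was at 41.8 and 8.75 in gerbil, against 2.81 and 0.962 in mouse, and was not called. Stmn2 was at 1.66 and 1.53 in gerbil, against 19.2 and 44.6 in mouse, and was called higher in mouse. Glial markers (5 measured) summed to 186 and 119 in gerbil, against 58.8 and 32.1 in mouse, with 2 called higher in gerbil. Enamel knot markers summed to 1821 and 1797 in gerbil, against 5168 and 2854 in mouse, with 5 of 11 called higher in mouse and 0 in gerbil. Skeletal muscle markers (9 measured) summed to 42.3 and 68.9 in gerbil, against 183 and 690.3 in mouse. Pericyte and smooth muscle markers (7 measured) summed to 146 and 213 in gerbil, against 90.5 and 49.1 in mouse, and blood and immune markers (4 measured) to 4.82 and 29.5 in gerbil, against 112 and 27.9 in mouse. Most of the mouse PEK sum of that last list was Hbb-y, at 103 in PEK and 3.38 in SEK. Its called marker, C1qa, was higher in gerbil (2.08 ± 0.77). The part of these tissues in the member differences was not tested, and in such bulk samples fewer cells of a type and less RNA per cell cannot be told apart.

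Between the gerbil libraries, Nrp1 and Plxnd1 were higher in E23, while secreted semaphorins and Ephb4 were lower there. With 1 library on each side there is no test, and a difference past 2-fold is a value of these libraries. Nrp1 (26.1 in E23 and 0.452 in E21, a corrected log2 difference of 4.26) and Plxnd1 (70.8 and 29.0, 1.36) were more than 2-fold higher in E23, or 2 of 41 members (4.88%, against 6.03% of all genes). Sema3d (-1.94), Ntn1 (-1.67), Ephb4 (-1.36), Sema3a (-1.06) and Sema3c (-1.04) were more than 2-fold lower in E23, or 5 of 41 (12.2%, against 3.68%). With no length correction these counts were 2 (against 5.91%) and 6 (against 3.72%). All 6 class 3 semaphorins were lower in E23 than in E21, with summed levels of 302 and 726.

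Most endothelial markers were higher in gerbil E23, as Nrp1 and Plxnd1 were. Ephb4 (-1.36) and Unc5b (-0.34), also named above for veins or vessels, were lower there. The 8 measured markers summed to 142 in gerbil E23 and 8.07 in E21, 7 of them were higher in E23, and their median difference was 4.14. With Egfl7 and Vwf, which were matched but not measured, the sums were 197 in E23 and 42.2 in E21, most of the E21 sum being Egfl7 (53.4 in E23 and 33.7 in E21). Pecam1 was at 24.1 in E23 and 0.302 in E21, Cdh5 at 28.4 and 0.528, and Emcn and Esam were listed at 0 in E21. Plxnd1 stood at 29.0 in E21. The part of endothelium in the Nrp1 and Plxnd1 values was not tested. Mesenchyme markers summed higher in E23 as well (3581, against 1953 in E21), with 8 of 12 higher there.

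**Figure D5:**
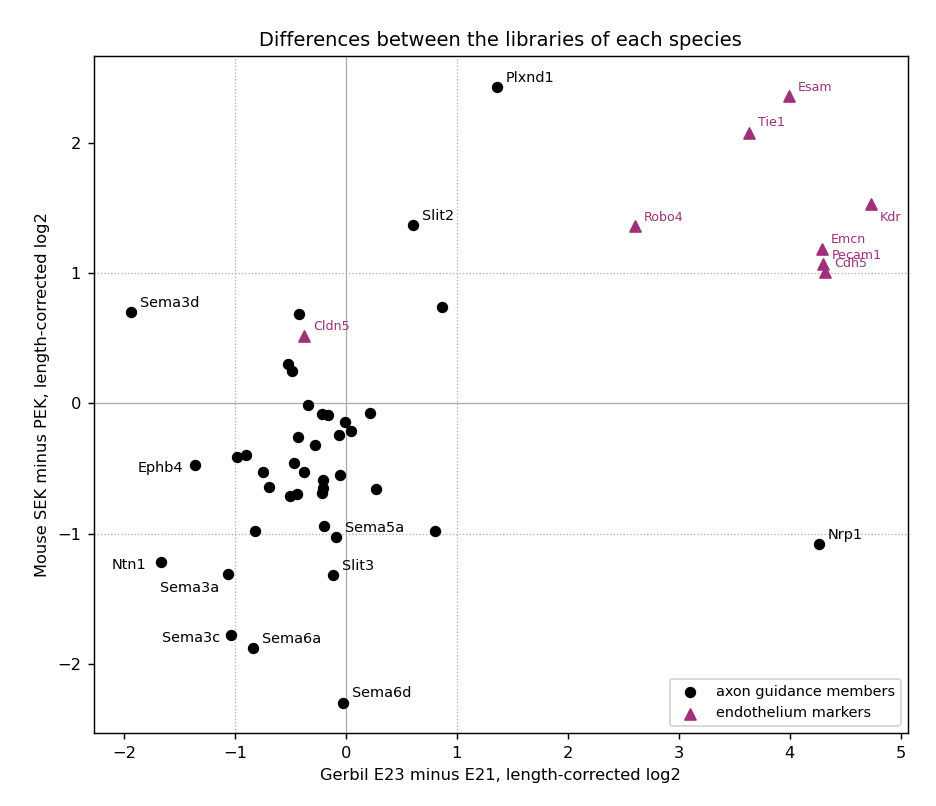
Difference between the libraries of each species on the length-corrected log2 scale, gerbil E23 minus E21 across and mouse SEK minus PEK up. Black points are the 41 members, purple triangles the measured endothelium markers, and dotted lines mark 2-fold. Plxnd1 lies in the upper right with most endothelial markers, Nrp1 far right and below 0, and Sema3a, Sema3c and Ntn1 in the lower left.

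Between the mouse libraries, most members were lower in SEK than in PEK. Plxnd1 (6.75 in SEK and 1.32 in PEK, 2.43) and Slit2 (31.1 and 21.1, 1.37) were more than 2-fold higher in SEK, or 2 of 41 (4.88%, against 7.44% of all genes). The Slit2 difference was 0.54 on levels without the length correction. Sema6d (0.966 and 15.0, -2.30), Sema6a (6.69 and 45.4, -1.88), Sema3c (4.65 and 29.1, -1.78), Slit3 (-1.32), Sema3a (-1.31), Ntn1 (-1.22), Nrp1 (-1.08) and Sema5a (-1.03) were more than 2-fold lower in SEK, or 8 of 41 (19.5%, against 8.44%). With no length correction, 1 was higher (against 8.52%) and 14 were lower (against 11.7%). In all, 7 of the 41 were higher in SEK by any margin, with a median of -0.53 beside -0.03 over all genes. Efna2 (80.1 and 79.4) changed little, and Plxnb2 was at -0.08 on the corrected scale and -0.75 without the length correction.

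The 8 measured endothelial markers were all higher in SEK as well, at a sum of 34.7 against 10.1 in PEK. With Egfl7 (189 in SEK and 106 in PEK) and Vwf the sums were 224 in SEK and 117 in PEK. Plxnd1 was also higher in SEK (2.43), while Nrp1 (-1.08) and Ephb4 (-0.47) were lower there and Unc5b was nearly level (-0.01). Skeletal muscle markers summed to 690.3 in SEK and 183 in PEK, and enamel knot markers to 2854 in SEK and 5168 in PEK, with 1 of 11 higher in SEK. The part of these tissues in the mouse member values was not tested. Leaving out 1 library loosens the call rule, so a call can then end only through the refitted length trend or the filter on low values. Keeping a call in these runs is therefore no independent support. Efna2, Epha4, Sema5a and Sema6d kept their species call when any 1 library was left out, and so did Sema3d, Ephb4 and Plxnb2. Efna5 lost it without gerbil E21.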

How the data were processed

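The authors deposited FPKM for 27632 assembled mouse loci and TPM for 25745 gerbil genes, per the file headers. Tools in the submitters' processing notes are cutadapt 2.8, STAR 2.7.1a and RSEM 1.3.1, and builds GRCm38 and mm10, with no role or table stated. The gerbil build was not given in these sources. A further 4 per-sample columns were not used here. The columns carry no sample number, so each served as an unnumbered sample of its species.

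Genes were matched by symbol, ignoring case, where it occurred once per table and was no LOC, Gm or Rik name (13325 genes). Values were rescaled to 1000000 per library and log2(level + 1) was taken. Those averaging a level of 1 or more over libraries and having a transcript length (GENCODE M21 basic exon union) were kept (10162). In each library the median deviation from the gene's mean was computed in 40 bins of length, joined by straight lines and subtracted. The same step on GC of the longest transcript was an alternative. The steps were tested on simulated data and run with Python 3.11.15, numpy 2.4.6 and pandas 2.3.3.

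The members, lists and tests were chosen with earlier results of these data known, including the length correction. Values per library are given for called members, the 3 most abundant per species and those differing over 4-fold within a species, and, beyond that rule, for the other members. Of the further guidance genes, up to 5 called per direction and list were named by their gap. One marker gene is not reported here. Read counts were not used, so no count model or counting interval is given.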

Additional observations from a re-analysis of the deposited data

How the results depend on the processing

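The alternatives include the runs with 1 library left out, which loosen the call rule and are no independent check of a call. Efna2 was called higher in mouse under all 11 alternatives, and Epha4 and Sema5a were called higher in gerbil under 10 of 11, ending with a 4-fold gap. That gap left 0 members higher in gerbil and 1 higher in mouse, 2 and 0 of the other guidance genes, and 319 and 555 of all genes. Without the length correction 14 members were higher in gerbil, the member median was 0.93, and 21 other guidance genes were higher in gerbil. With neither centring nor correction the counts were 19 members in gerbil and 1 in mouse (median 1.57), 28 and 0 other guidance genes and 3021 genes in gerbil, and the Plxnb2 difference reversed to 0.28. With GC also removed the member median was 0.39 and 4 other guidance genes were higher in mouse. With no filter the median was 0.35, and with a minimum of 10 in each species 663 and 746 of all genes were called. Leaving out 1 library gave 5 to 10 members higher in gerbil and 3 to 5 in mouse (9 without gerbil E23, 10 without mouse PEK, 5 in mouse without mouse SEK), medians of 0.01 to 0.30, and 10 to 16 and 7 to 12 other guidance genes (14 without gerbil E23, 16 without mouse PEK, 12 in mouse without mouse SEK). Members lower in mouse SEK numbered 14 without the length correction and 20 with no centring either, and 1 was higher in both cases. Where no alternative's construction shows the cause, the cause was not tested.

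No paired analysis was possible because the columns carry no replicate numbers. Scaling by gerbil read counts was not run, since the count columns were not used. Mouse depth is unknown, so low values such as Nrp1 in gerbil E21 or Sema6d in mouse SEK have no counting interval.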
